A study of Mus musculus with 27 samples.

Results

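The enteric neuron and glia genes are 7 genes that mark the nerve cells of the gut wall and the glial cells that surround them, Elavl4, Uchl1, Ret, Vip, Nos1, S100b and Sox10. They were taken by gene symbol from a table of 23420 genes, and all 7 were in it. Transcripts were counted from their 3′ ends in 27 libraries of colon and jejunum, each as tissue and as organoids, which are epithelial cultures that intestinal stem cells form in a gel. All mice were of the C57BL/6 strain and were given 15% EtOH or water (Control) for 8 weeks, and the labels name no other allele or agent and give neither age nor sex. Tissue was sampled from EtOH colon (4 libraries), Control colon (4), EtOH jejunum (4) and Control jejunum (3). Organoids came from EtOH colon (2 libraries), Control colon (2), EtOH jejunum (4) and Control jejunum (4), and the labels record no ethanol in the culture itself. The libraries of a group carry donor numbers 1 to 4, the same numbers recur under EtOH and Control, and no label says outright that libraries came from separate animals, so p-values measure the spread between these libraries.

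The enteric nervous system lies in the gut wall as a plexus between the muscle layers and another beneath the epithelium, and it derives from the neural crest. Its precursors need the receptor tyrosine kinase RET and its ligand GDNF to colonise the bowel, and the transcription factor SOX10 to survive and to form glia. Inhibitory motor neurons relax the muscle through nitric oxide, made by the synthase that Nos1 encodes, and vasoactive intestinal peptide, encoded by Vip. ELAVL4 (HuD) is an RNA-binding protein of neurons, UCHL1 (PGP9.5) is a ubiquitin hydrolase abundant in neurons, and S100B is a calcium-binding protein of glia.

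The 7 genes lie on 5 chromosomes of the GRCm38 assembly (GENCODE vM21 annotation). Elavl4 spans positions 110203722 to 110351909 of chromosome 4 on the minus strand, and Uchl1 spans 66676091 to 66687234 of chromosome 5 on the plus strand. Nos1 lies on the same chromosome, at 117781032 to 117958840 on the plus strand. Ret spans 118151745 to 118197718 of chromosome 6 on the minus strand, and Sox10 spans 79154908 to 79165240 of chromosome 15 on the minus strand. Vip, at 5639218 to 5647617, and S100b, at 76253853 to 76261159, are on the plus strand of chromosome 10. The last 1731 bases of S100b overlap the 3′ end of Dip2a, a gene on the minus strand at 76259429 to 76345291, and the sources used here do not say whether reads were counted by strand. Whether reads of S100b and Dip2a in the overlap were kept apart is therefore not known, and S100b values are uncertain to that degree.

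Promoter sequences were available in RefSeq (GRCm38.p6) for 5 of the 7 genes, as windows of 250 bases before and 50 bases after a transcription start. Those of Vip and Elavl4 are shown because their levels separated every colon tissue library from every jejunum tissue library, and that of Uchl1 because it is the pan-neuronal member whose levels did not. Capitals mark CGTCA, read on either strand, the core of the cyclic AMP response element, through which the human VIP gene is known to be induced. The Vip window is chr10:5638968-5639267 on the plus strand, the Elavl4 window, at its most upstream start, is chr4:110351862-110352161 on the minus strand, and the Uchl1 window is chr5:66675871-66676170 on the plus strand.
Vip: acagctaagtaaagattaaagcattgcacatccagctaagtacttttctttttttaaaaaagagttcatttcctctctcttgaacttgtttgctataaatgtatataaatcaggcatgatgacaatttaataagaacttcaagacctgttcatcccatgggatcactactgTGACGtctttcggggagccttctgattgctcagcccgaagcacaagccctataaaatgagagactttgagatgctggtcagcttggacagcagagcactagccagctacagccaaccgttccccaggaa
Elavl4: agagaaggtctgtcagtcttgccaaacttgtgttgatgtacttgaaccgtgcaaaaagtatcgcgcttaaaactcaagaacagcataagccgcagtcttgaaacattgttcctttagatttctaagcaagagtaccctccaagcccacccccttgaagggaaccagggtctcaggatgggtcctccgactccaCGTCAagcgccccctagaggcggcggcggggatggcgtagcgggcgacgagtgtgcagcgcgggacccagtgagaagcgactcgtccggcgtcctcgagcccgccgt
Uchl1: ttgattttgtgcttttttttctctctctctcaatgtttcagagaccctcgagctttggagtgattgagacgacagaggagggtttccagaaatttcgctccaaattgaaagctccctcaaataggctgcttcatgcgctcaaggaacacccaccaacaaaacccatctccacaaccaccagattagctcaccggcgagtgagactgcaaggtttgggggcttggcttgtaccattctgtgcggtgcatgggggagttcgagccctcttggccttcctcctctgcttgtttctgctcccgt
The match in Vip begins at position -79 from the start site, where it reads TGACG on the plus strand, and that in Elavl4 begins at position -57. Of the 4 annotated Elavl4 start sites, 3 have a match in their window. The windows with matches at -130 and -146 overlap and share the same match. The Uchl1 and S100b windows hold no match, and the Nos1 window holds 1 at position -130. Of 32817 mouse promoter windows of the same length, 20.8% hold at least 1 match, so that a match is a description of these letters only.

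Levels are given as CPM, the counts of a gene per 1000000 counts outside Rn45s. Rn45s, the 45S ribosomal precursor, held between 18.3 and 84.3% of the counts of each library. Counts outside Rn45s ran from 684906 to 7606668 per library and were fewest in Control jejunum tissue, at 684906 to 1510057, where 1 count stands for 0.662 to 1.46 CPM. The kit reads 1 tag per transcript, so that levels of different genes can be set side by side without a correction for length. Of the 8 colon tissue libraries, donor number 1 stood apart in both arms. The summed level of 13 smooth muscle genes was 33878 CPM in its EtOH library and 26102 CPM in its Control library, against 6224 to 8071 CPM in the other 6 colon tissue libraries. Hoxb13, a homeobox gene of the most distal gut, was at 182.0 and 800.5 CPM in EtOH donor numbers 1 and 2 and at 182.5 CPM in Control donor number 1, and at 0.274 CPM or less in the other 5. Results on colon tissue are therefore also given without both donor number 1 libraries, an alternative chosen after seeing the data. In bulk tissue, fewer cells of a type and less RNA per cell cannot be told apart.

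In colon tissue every member was counted in all 8 libraries. By median level Uchl1 came first at 121 CPM, followed by Vip at 36.9, Elavl4 at 33.7, Ret at 15.3, S100b at 12, Sox10 at 5.86 and Nos1 at 2.27 CPM. Uchl1 exceeded Vip, Elavl4 exceeded Ret, and Sox10 exceeded Nos1 in each of the 8 libraries. The order of the other neighbours was mixed, since Vip was at or below Elavl4 in 4 libraries, Ret at or below S100b in 2, and S100b at or below Sox10 in 1. In jejunum tissue Uchl1 was again first, at a median of 82.1 CPM over 7 libraries, above every other member in each of them. Ret (9.5), Elavl4 (9.33) and Vip (7.13 CPM) followed with mixed order, then S100b at 3.02 and Sox10 at 0.662 CPM, and Nos1 had a median of 0. Uchl1 made up 39.0 to 62.1% of the summed level of the 7 members in colon tissue libraries and 62.1 to 74.1% in jejunum tissue libraries. Of the separate list of 25 pan-neuronal genes, all 25 had counts in each of the 8 colon tissue libraries, as did 16 of the 17 listed glial genes. Some of these genes were also counted in organoids, such as Map2 at a mean of 64.7 CPM in Control colon organoids. A count does not by itself identify neurons or glia. In jejunum tissue 10 of the 25 and 9 of the 17 had a count in all 7 libraries.

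**Figure D1:**
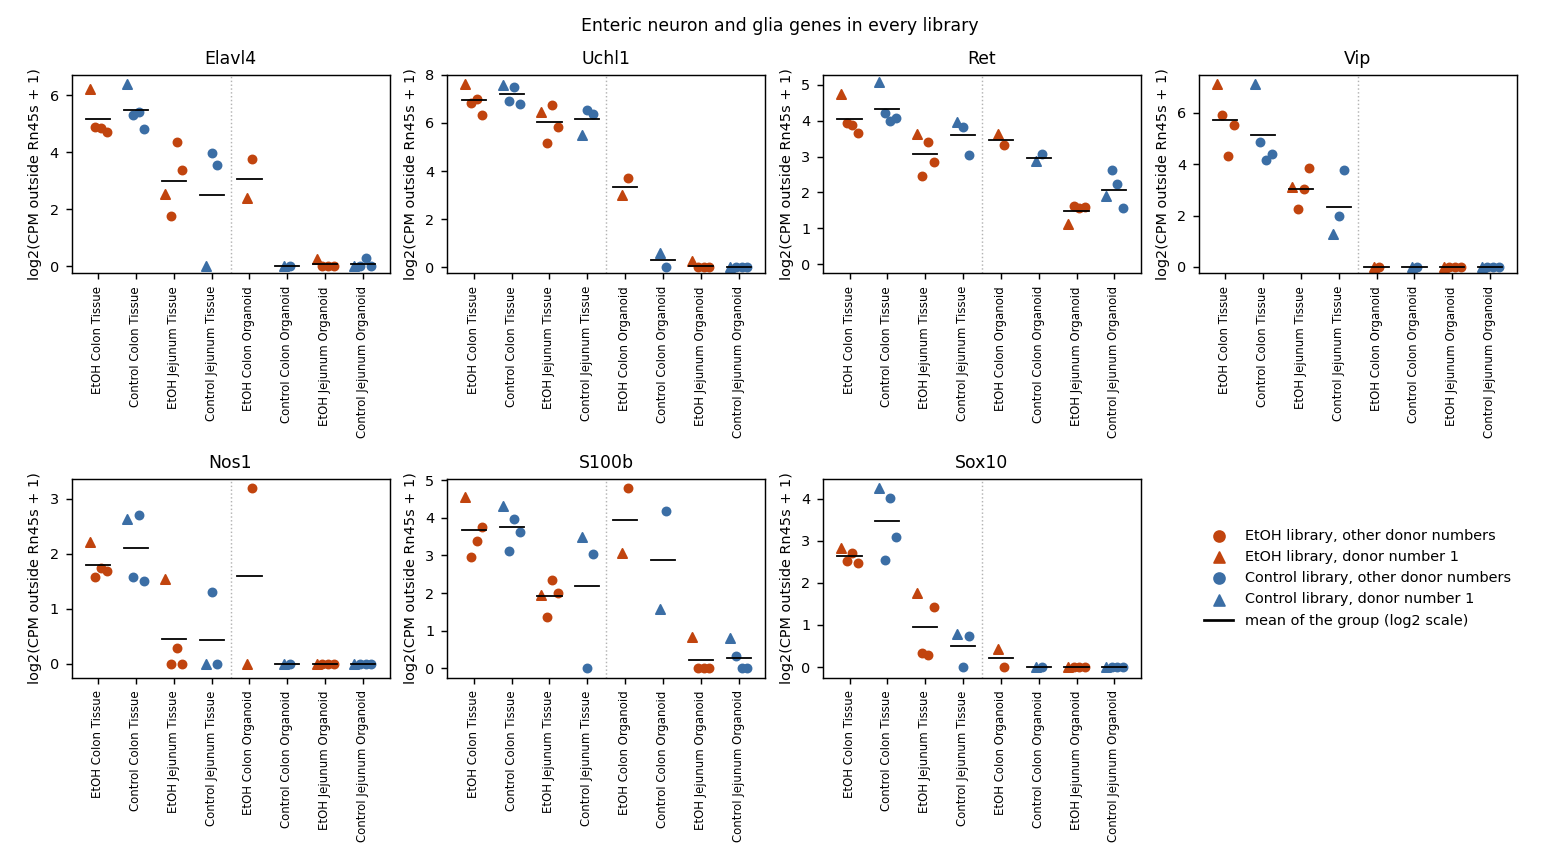
Level of each member in every library, as log2(CPM outside Rn45s + 1), with EtOH in red, Control in blue, donor number 1 as triangles and the mean of each group as a line. In colon tissue the donor number 1 libraries hold the highest Elavl4, Uchl1, Ret, Vip, S100b and Sox10 of their groups, and in jejunum organoids only Ret has counts in every library.

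Elavl4 was measured at 74.2, 28.3, 27.7 and 24.9 CPM in EtOH colon tissue of donor numbers 1 to 4, and at 83.8, 39.0, 41.1 and 27.4 CPM in Control colon tissue. In jejunum tissue it was at 4.76, 2.39, 19.4 and 9.33 CPM in EtOH libraries and at 0, 14.6 and 10.6 CPM in Control libraries. The groups of both treatments overlapped in either segment, whereas every colon library lay above every jejunum library. Uchl1 was at 196, 112.5, 125 and 78.5 CPM in EtOH colon tissue and at 191, 117, 178 and 109 CPM in Control colon tissue. In jejunum tissue it was at 86.2, 35.3, 105 and 55.2 CPM in EtOH libraries and at 44.3, 92.0 and 82.1 CPM in Control libraries. Uchl1 overlapped between treatments and also between colon and jejunum.

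Ret, the receptor of the GDNF family, was at 25.5, 14.3, 13.7 and 11.7 CPM in EtOH colon tissue and at 32.9, 17.5, 14.8 and 15.8 CPM in Control colon tissue. Its jejunum levels were 11.4, 4.52, 9.5 and 6.18 CPM in EtOH libraries and 14.5, 13.1 and 7.28 CPM in Control libraries. Donor number 1 was the highest of its group in colon under both treatments and in jejunum under both treatments.

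Vip had the widest spread of the members in colon tissue. It was at 139, 59.4, 19.1 and 45.6 CPM in EtOH colon tissue and at 139.9, 28.3, 17.0 and 20.3 CPM in Control colon tissue, where the highest library had 7.28 times the level of the lowest with EtOH and 8.22 times in Control. In jejunum tissue Vip was at 7.62, 3.72, 7.13 and 13.4 CPM in EtOH libraries and at 1.45, 2.92 and 12.6 CPM in Control libraries. Nos1, the nitric oxide synthase of the same class of neurons, was scarce. It was at 3.64, 1.98, 2.34 and 2.2 CPM in EtOH colon tissue and at 5.2, 1.98, 5.49 and 1.83 CPM in Control colon tissue, from 7 to 33 counts per library. In jejunum tissue Nos1 rested on 5 counts over the 4 EtOH libraries and 1 count over the 3 Control libraries.

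S100b was at 22.7, 6.74, 9.53 and 12.6 CPM in EtOH colon tissue and at 18.9, 7.63, 14.8 and 11.4 CPM in Control colon tissue. In jejunum tissue it was at 2.86, 1.59, 4.1 and 3.02 CPM in EtOH libraries and at 10.2, 0 and 7.28 CPM in Control libraries. The overlapping gene Dip2a averaged 43.9 ± 7.55 CPM in colon tissue (SD, n = 8) and 16.5 ± 8.45 CPM in jejunum tissue (SD, n = 7). Sox10 was at 6.14, 4.75, 5.57 and 4.54 CPM in EtOH colon tissue and at 18.1, 4.81, 15.1 and 7.51 CPM in Control colon tissue. The EtOH libraries lay close together, 2 of them below every Control library, and the groups overlapped. In jejunum tissue Sox10 rested on 1 to 13 counts per EtOH library and on 0 or 1 count per Control library.

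The effect of ethanol on colon tissue was tested on all 15 tissue libraries with edgeR's quasi-likelihood test and Benjamini-Hochberg adjustment over 13434 genes, a gene being called at an adjusted p under 0.05. No member was called, and neither was nearly any other gene, since 0.00744% of the genes tested (1 gene, lower with EtOH) passed. By the unadjusted p, 324 genes were under 0.05, and DESeq2 called 2 genes. Of the 7 members 6 had a negative log2 fold change, between -0.06 and -1.12, with a median over the 7 of -0.34 against 0 over all genes tested, of which 49.6% were positive. Vip alone was positive, at 0.35 ± 0.69 (SE), averaging 65.7 ± 51.5 CPM with EtOH and 51.4 ± 59.2 CPM in Control (SD, n = 4 each). Sox10 had the most negative fold change, -1.12 ± 0.52, with a mean of 5.25 ± 0.741 CPM in EtOH colon and 11.4 ± 6.25 CPM in Control colon (SD, n = 4 each) and an adjusted p of 1 by edgeR's quasi-likelihood test. Leaving out both donor number 1 libraries left 6 of 7 members negative, with a median of -0.4 against 0.03 over all genes.

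The wider lists of nerve and glial genes, like the members, were drawn up with earlier results known, and not all had values of 1 sign in colon tissue. The cholinergic and excitatory list had a median of -0.13 (9 of 9 negative). The inhibitory motor neuron list also holds receptors and effectors of cells that respond to these neurons, such as Vipr1 and Gucy1a3. Its median was 0.01 (3 of 6 negative), and that of the sensory neuron list was -0.03 (3 of 5 negative). The RET and endothelin list had a median of -0.1 (5 of 8 negative), and none of these genes was called. The pan-neuronal and glial lists were mostly negative. All 25 pan-neuronal genes had a negative log2 fold change with EtOH, between -0.02 and -0.85, and none of them was called (median -0.46). Without both donor number 1 libraries 23 of the 24 that were tested were negative (median -0.62), and on plain CPM outside Rn45s with no further scaling factor 23 of 24 were. Of 14 glial genes tested 13 were negative, with a median of -0.45, and none was called. Elavl3, a neuronal RNA-binding protein related to Elavl4, averaged 7.34 ± 1.8 CPM in EtOH colon and 12.9 ± 3.53 CPM in Control colon (SD, n = 4 each), and it was the only pan-neuronal gene whose groups did not overlap, where 0.893% of all genes tested had EtOH below Control throughout. Its adjusted p was 1 by edgeR's quasi-likelihood test, and it was picked out after its values were seen. Other cell types had mixed values beside these. The smooth muscle list had a median of 0.09 (11 of 13 positive), which turned to -0.2 (10 of 13 negative) without both donor number 1 libraries. The medians were -0.23 for the epithelial list (9 of 10 negative) and -2.28 for the adipocyte list (6 of 6 negative), with no call in any of them. The summed adipocyte level was 45.8 to 199 CPM in EtOH colon libraries and 103 to 1035 CPM in Control colon libraries, the highest being Control donor number 3, and its part in the values of the nerve genes was not tested.

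In jejunum tissue no gene was called for ethanol (0% of 13434 genes by edgeR's quasi-likelihood test, with 1534 genes at an unadjusted p under 0.05 and 31 called by DESeq2). The members' log2 fold changes ran from -1.06 ± 0.65 for S100b to 1.01 ± 1.12 for Sox10, with a median of 0.23 against 0.18 over all genes. Of the members 5 were positive, as were 64.6% of all genes. Uchl1, at 0.07 ± 0.36, turned to -0.08 with DESeq2's size factors. S100b averaged 2.89 ± 1.03 CPM in EtOH jejunum (SD, n = 4) and 5.82 ± 5.24 CPM in Control jejunum (SD, n = 3), and its groups overlapped. Of the glial list, Ngfr, the low-affinity neurotrophin receptor, averaged 0.261 ± 0.318 CPM in EtOH jejunum (SD, n = 4) and 2.63 ± 1.58 CPM in Control jejunum (SD, n = 3). Ncam1, a cell adhesion molecule, averaged 9.34 ± 3.18 CPM in EtOH jejunum and 20.3 ± 6.42 CPM in Control jejunum. For both genes all 4 EtOH libraries lay below the 3 Control libraries, where 1.73% of all genes tested were apart in this direction. The adjusted p by edgeR's quasi-likelihood test was 0.236 for Ngfr and 0.365 for Ncam1, and both genes were singled out with their values in view. Ednrb, the endothelin receptor of enteric precursors, was apart the other way, at 13 ± 4.31 CPM with EtOH (SD, n = 4) and 5.1 ± 2.18 CPM in Control (SD, n = 3), where 5.69% of all genes were apart and higher, with an adjusted p of 0.458 by edgeR's quasi-likelihood test. It too was named with its values in view. Smooth muscle genes had a median of -0.6 (13 of 13 negative, none called) in the same comparison, with summed levels of 866 to 3123 CPM in EtOH jejunum and 1196 to 4760 CPM in Control jejunum, and their part in the glial values was not tested. The difference of the ethanol effect between colon and jejunum was tested as an interaction, which called 0% of the genes (894 at an unadjusted p under 0.05, DESeq2 2), and the smallest adjusted p of a member was 0.783, for Sox10, by edgeR's quasi-likelihood test.

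**Figure D2:**
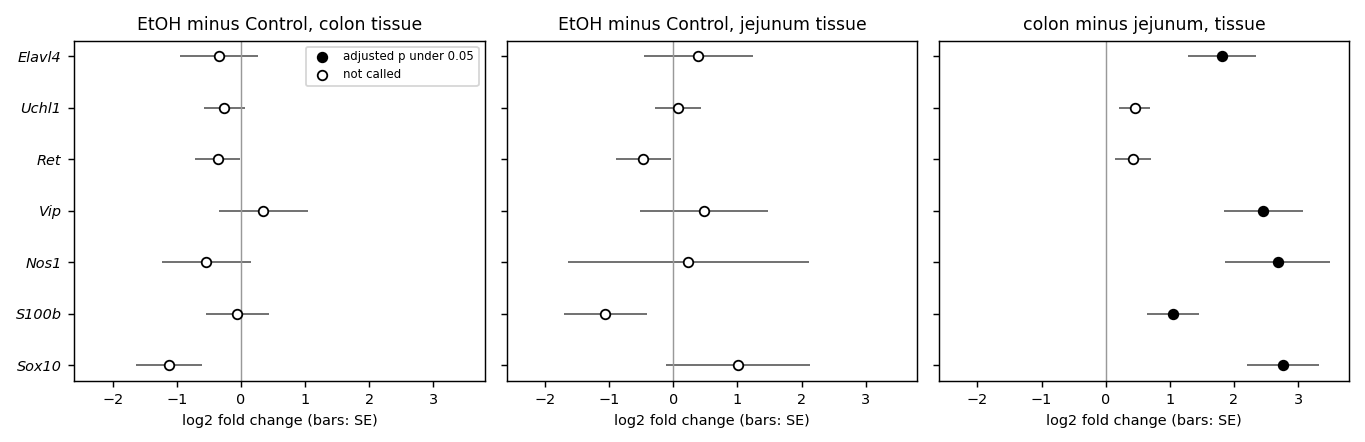
Log2 fold change of each member with its standard error, EtOH minus Control in colon tissue (left) and in jejunum tissue (middle) and colon minus jejunum in tissue (right), with filled points for an adjusted p under 0.05. No member is filled for EtOH in either segment, and 5 of 7 are filled for colon against jejunum.

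The segments themselves differed. Averaged over both treatments, 5 of the 7 members were higher in colon tissue than in jejunum tissue, where 36.8% of all genes were called higher, 24.7% lower and 61.5% in either direction. Sox10 averaged 8.32 ± 5.26 CPM in colon tissue (SD, n = 8) and 0.851 ± 0.876 CPM in jejunum tissue (SD, n = 7), a log2 fold change of 2.76 ± 0.56 (adjusted p = 0.000336, edgeR's quasi-likelihood test). Vip averaged 58.5 ± 51.9 CPM in colon and 6.98 ± 4.67 CPM in jejunum, with a log2 fold change of 2.46 ± 0.62 (adjusted p = 0.00347, edgeR). Elavl4 averaged 43.3 ± 22.9 CPM in colon and 8.73 ± 6.89 CPM in jejunum, with a log2 fold change of 1.81 ± 0.53 (adjusted p = 0.00796, edgeR). For these 3 genes all 8 colon libraries lay above all 7 jejunum libraries, which 27.1% of all genes did. Nos1, at 3.08 ± 1.51 CPM in colon and 0.512 ± 0.814 CPM in jejunum, was higher by a log2 fold change of 2.68 ± 0.82 (adjusted p = 0.00903, edgeR). S100b, at 13 ± 5.56 CPM in colon and 4.15 ± 3.48 CPM in jejunum, was higher by 1.05 ± 0.41 on the log2 scale (adjusted p = 0.0322, edgeR). It lost its call without both donor number 1 colon libraries (0.69, adjusted p = 0.169, edgeR) and without any of 4 single libraries, EtOH colon 1, Control colon 1, Control colon 3 or EtOH jejunum 2 (adjusted p 0.0541 to 0.107).

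Uchl1 and Ret were not called. Uchl1 averaged 138 ± 43.8 CPM in colon and 71.4 ± 26.4 CPM in jejunum, with a log2 fold change of 0.45 ± 0.24 (adjusted p = 0.112, edgeR). Ret averaged 18.3 ± 7.22 CPM in colon and 9.51 ± 3.72 CPM in jejunum, with a log2 fold change of 0.43 ± 0.28 (adjusted p = 0.179, edgeR). Fold changes of the fit are smaller than the ratios of these CPM values because edgeR scales each library by its TMM factor. The median of all genes was 0.3 with TMM and 0.76 on plain CPM outside Rn45s, and on that scale all 7 members were called, Uchl1 at 0.95 ± 0.26 and Ret at 0.94 ± 0.3. The calls over all genes were 4944 higher and 3318 lower with TMM, and 7111 higher and 2102 lower on plain CPM. Without both donor number 1 colon libraries, 4 members were called with TMM, at 2.51 for Sox10, 2.42 for Nos1, 1.52 for Vip and 1.33 for Elavl4.

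The other lists drawn up for the enteric nervous system were higher in colon in most classes. They also hold genes that were counted in organoids, such as Vipr1 and Entpd2, at means of 79.9 and 26.9 CPM in EtOH jejunum organoids. Of 25 pan-neuronal genes 24 were called higher and none lower, with a median log2 fold change of 2.74 against 0.3 over all genes. Tagln3, a neuronal relative of the muscle protein transgelin, averaged 6.36 ± 3.25 CPM in colon (SD, n = 8) and had no count in jejunum, at least 46.0-fold higher when 3 counts in all are assumed for the empty group. Nefl, the light neurofilament, averaged 10.6 ± 5.53 CPM in colon and 0.0379 ± 0.1 CPM in jejunum. Prph was the pan-neuronal gene that did not pass. Of 6 genes of inhibitory signalling, made by the neurons or by cells that respond to them, 5 were higher and none lower. Gucy1a3 and Gucy1b3, the subunits of the guanylyl cyclase that senses nitric oxide, were higher by 3.48 ± 0.39 and 3.03 ± 0.42 on the log2 scale, and Gal, a neuropeptide, by 2.39 ± 0.53. Of 9 cholinergic and excitatory genes 7 were higher and 1 was lower. Penk, the enkephalin precursor, was higher by 5.69 ± 0.5 and Calb2 (calretinin) by 3.53 ± 0.34, while Tacr1, the substance P receptor gene, was lower at -1.36 ± 0.32. Tacr3, a neurokinin receptor gene, averaged 2.01 ± 0.826 CPM in colon and 0.0617 ± 0.163 CPM in jejunum.

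Sensory neuron genes were higher in 4 of 5 cases. Nmu, a neuropeptide, was higher by 3.05 ± 0.59. Grp, another neuropeptide, averaged 21 ± 17.8 CPM in colon and 0.0684 ± 0.118 CPM in jejunum, and Calcb, which encodes a calcitonin gene-related peptide, averaged 13.4 ± 10.8 CPM in colon and 0.56 ± 0.781 CPM in jejunum. Grp, Calcb, Tacr3, Nefl, Foxd3, Gfap, Sox2 and Kcnn3, all called higher, had no count in Control jejunum tissue, so that levels are given for them in place of fitted fold changes. Of 8 genes of RET and endothelin signalling 3 were higher and 1 was lower, a share of higher genes near the 36.8% of all genes. The ligand gene Gdnf averaged 6.71 ± 6.05 CPM in colon and 1.1 ± 1.2 CPM in jejunum, a log2 fold change of 2.68 ± 0.8, and the co-receptor Gfra2 and its ligand Nrtn were higher by 1.4 ± 0.54 and 1.17 ± 0.46. Edn3, the endothelin that enteric precursors need, averaged 7.72 ± 4.11 CPM in colon and 23.9 ± 8.92 CPM in jejunum and was lower at -2.13 ± 0.33. Of 14 glial genes 9 were higher and 1 lower (median 2.08). Foxd3 averaged 5.15 ± 2.53 CPM in colon and 0.125 ± 0.248 CPM in jejunum, and Gfap, the intermediate filament of glia, averaged 3.62 ± 1.79 CPM in colon and 0.0872 ± 0.158 CPM in jejunum. Sox2 averaged 1.85 ± 0.931 CPM in colon and 0.206 ± 0.355 CPM in jejunum, while Entpd2, an enzyme that splits extracellular ATP, was lower at -1.03 ± 0.17.

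Genes of other cell types were higher in colon as well. All 13 smooth muscle genes were higher in colon, with a median of 2.24, led by Des at 4.42 ± 0.79, Actg2 at 3.89 ± 0.78 and Cnn1 at 3.67 ± 0.79. Interstitial cells of Cajal are the pacemaker cells of the muscle. The 7 genes listed for them are not all particular to them, and P2ry1 averaged 50.5 ± 1.2 CPM in EtOH jejunum organoids (SD, n = 4). Of the 7 genes 6 were higher in colon tissue, with Ano1 at 4 ± 0.6 and Etv1 at 3.24 ± 0.46. Kcnn3 was at 7.57 ± 4.05 CPM in colon and 0.713 ± 1.39 CPM in jejunum. The summed level of the 13 muscle genes was 6224 to 33878 CPM in colon libraries and 866 to 4760 CPM in jejunum libraries, and none of the 13 was without counts in any of them. Of 12 enteroendocrine genes, of the hormone cells of the epithelium, 7 were higher and 2 lower, with a median of 1.54, and these cells are known to make some genes of the pan-neuronal list, such as Scg2, Scg3 and Snap25. The epithelial list had a median of -1.43, with 2 genes higher and 7 lower. Without both donor number 1 colon libraries the medians were 2.34 for the pan-neuronal list, 1.75 for the glial list and 1.24 for the muscle list, against 0.15 over all genes, and 21 of 24, 8 of 13 and 8 of 13 genes of these lists were called higher. The part of muscle or hormone cells in the nerve genes' values was not tested.

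**Figure D3:**
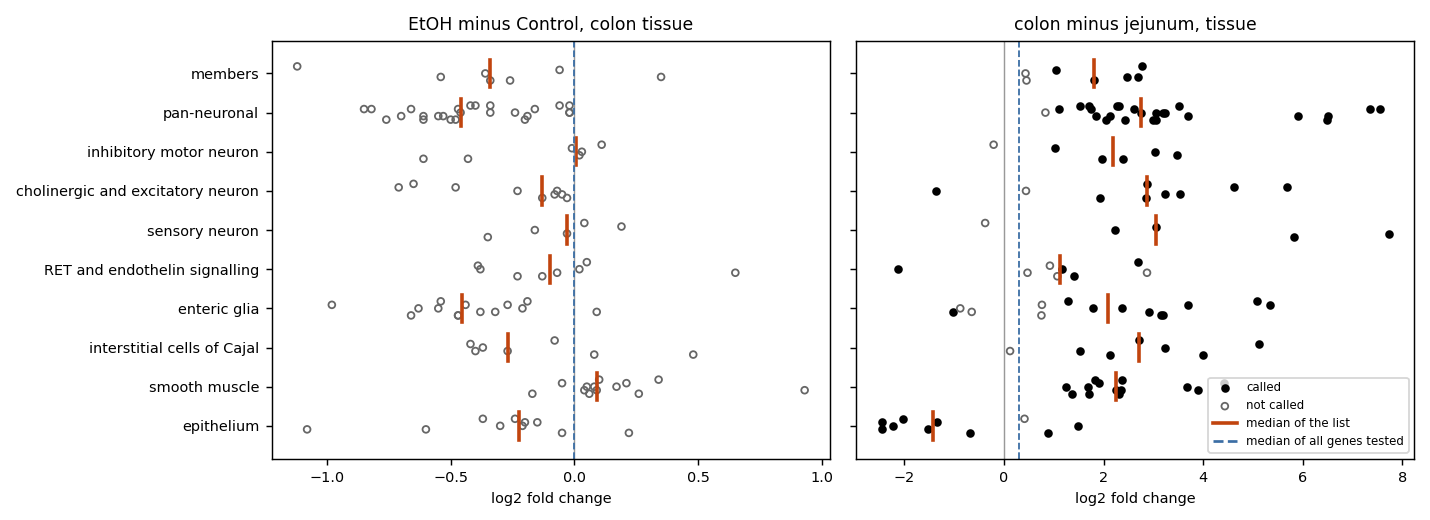
Log2 fold change of every tested gene of 10 lists, EtOH minus Control in colon tissue (left) and colon minus jejunum in tissue (right), with filled points for called genes, a red bar at the median of the list and a dashed line at the median of all genes tested. On the right, points of genes with no count in Control jejunum tissue depend on the fit. On the left no point is filled and all 25 pan-neuronal points lie at or below -0.02, and on the right 24 of 25 pan-neuronal and 13 of 13 smooth muscle points are filled and above 0.

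Within a segment the members could be set against the muscle of each library. The colon tissue libraries fell into 2 clusters by muscle, and in the 6 libraries other than donor number 1 the log2 level of S100b was related to the log2 summed muscle level by Pearson's r = 0.87 and Spearman's rho = 0.77, with an exact permutation p of 0.0722 for r and an adjusted p of 0.506 over the 7 relations of these libraries. In the same 6 libraries r was 0.57 for Sox10 and 0.42 for Nos1, and it was -0.07 for Elavl4, -0.04 for Uchl1, -0.2 for Vip and -0.3 for Ret. None of the 7 relations was thus past the threshold in these 6 libraries. Over all 8 colon libraries S100b had r = 0.88 (exact permutation p = 0.00129, adjusted 0.0181 over the 14 relations of both segments). Its rho there was 0.9 (exact permutation p = 0.00456, adjusted 0.0639). The high muscle sums of donor number 1 go with its high Elavl4, Uchl1, Ret, Vip, S100b and Sox10 as a pair of libraries only. In the 7 jejunum libraries Elavl4 had r = 0.77 and rho = 0.86 (exact permutation p = 0.029, adjusted 0.124 over the 14 relations of both segments with all libraries), and r = 0.78 without the 2 libraries farthest from the median. Uchl1 had r = 0.75 and rho = 0.75 there (exact permutation p = 0.0619, adjusted 0.124), and r = 0.57 without them. The other 5 members had r between -0.5 and 0.31 in jejunum. Groups of 1 treatment hold at most 4 libraries, too few for a value within each.

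**Figure D4:**
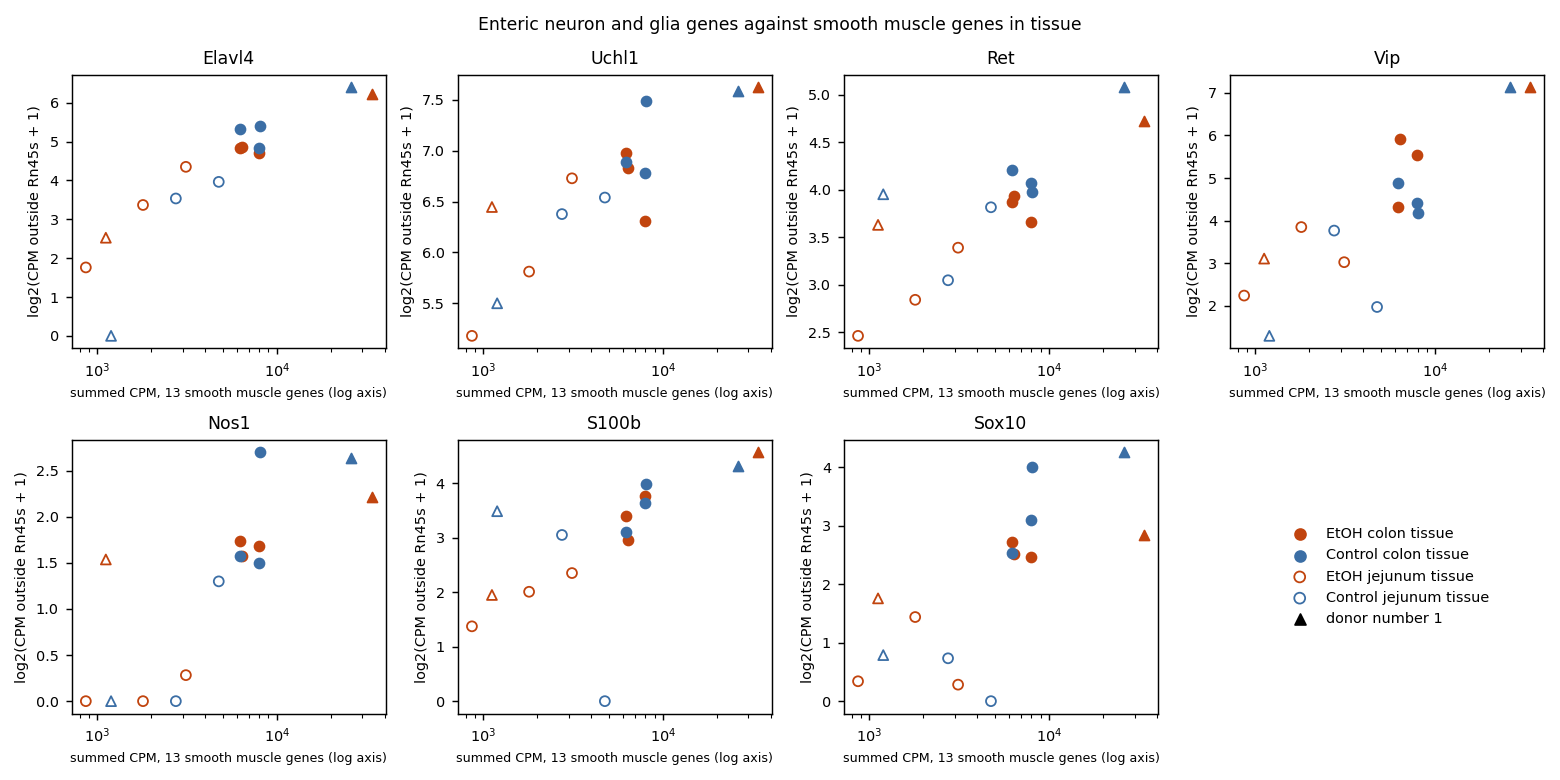
Level of each member as log2(CPM outside Rn45s + 1) against the summed CPM of 13 smooth muscle genes on a log axis, for colon tissue (filled) and jejunum tissue (open), EtOH in red and Control in blue, donor number 1 as triangles. The 2 filled triangles lie at 26102 and 33878 CPM of muscle genes, apart from the other 6 colon libraries at 6224 to 8071 CPM.

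The members also varied among themselves. Over the 8 colon tissue libraries all 21 pairs of members had a positive Pearson correlation of log2 levels, with a median of 0.7 and the highest, 0.95, between Elavl4 and Ret. Without donor number 1, 13 of 21 pairs were positive over 6 libraries and the median was 0.2. The pairs that were then highest were Nos1 with Sox10 at 0.87 and Uchl1 with Sox10 at 0.8, while Vip was negative with each of the other 6 members, from -0.37 with Ret to -0.68 with Sox10. In jejunum tissue 12 of 21 pairs were positive (median 0.13, n = 7), with the highest between Elavl4 and Uchl1 at 0.77. Both genes of a pair share their library's depth and muscle content, and the values are a description.

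Among 13427 genes other than the members, those most like the mean log2 level of the 7 members were ranked by the smaller of the correlations within the 8 colon and within the 7 jejunum tissue libraries. The colon libraries include both of donor number 1. The 8 highest were Sdc2 (0.94), a cell surface heparan sulfate proteoglycan, Armcx2 (0.93), Brsk1 (0.91), a kinase of neurons, Nxn (0.91), Slit3 (0.9), a secreted guidance protein, Chst12 (0.89), Gas1 (0.89) and Ank2 (0.89), an ankyrin. None of the 8 was in any of the lists. The gene most like Elavl4 was Syt4, a synaptotagmin of secretory vesicles (0.95), and the gene most like Nos1 was Syn1, a synaptic vesicle protein of the pan-neuronal list (0.83). The other members had Ccdc88a (0.87, Uchl1), Zcchc3 (0.91, Ret), Il17d (0.87, Vip), Fam211b (0.92, S100b) and Elf2 (0.87, Sox10) as their nearest, and the next in order were Dusp3 for Elavl4, Dmpk for Uchl1, Npr2 for Ret, Epha4 for Vip, Cplx1 for Nos1, Jam2 for S100b and Saal1 for Sox10.

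Organoids are grown from epithelium. In jejunum organoids every member but Ret had at most 4 counts in any library, whereas Ret and S100b were counted in all 4 colon organoid libraries. Against colon tissue, 5 of the 7 members were lower in colon organoids, where 35% of all 14785 genes tested in the fit of the 27 libraries were called lower and 52.9% were called in either direction. Vip had no count in any of the 4 colon organoid libraries, against 58.5 ± 51.9 CPM in colon tissue, and was at least 137-fold lower on the same assumption of 3 counts in all. Uchl1 averaged 4.85 ± 5.68 CPM in colon organoids (SD, n = 4) and 138 ± 43.8 CPM in colon tissue (SD, n = 8). Its fitted log2 fold change was -6.32 ± 0.48 (adjusted p = 3.46e-10, edgeR's quasi-likelihood test). That value averages both treatments on the log2 scale and is not the ratio of these means. It leans on 1 count in Control colon organoids, whose mean was 0.246 CPM against 9.46 CPM in EtOH colon organoids. Elavl4 averaged 4.21 ± 5.96 CPM in colon organoids and 43.3 ± 22.9 CPM in colon tissue, a log2 ratio of the means of -3.36 (adjusted p = 1.46e-05, edgeR). Sox10, with 1 count in 4 organoid libraries, averaged 0.0879 ± 0.176 CPM there and 8.32 ± 5.26 CPM in colon tissue (adjusted p = 6.46e-05, edgeR). Neither gene had a count in Control colon organoids, so that the fitted fold change has no firm value and is not given. Ret was lower by less, at 8.47 ± 2.13 CPM in organoids and 18.3 ± 7.22 CPM in tissue, with a log2 fold change of -1.26 ± 0.36 (adjusted p = 0.00436, edgeR).

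Without both donor number 1 tissue libraries 5 members were called lower in colon organoids. S100b and Nos1 were not called in that comparison. S100b averaged 13.3 ± 10.9 CPM in colon organoids (SD, n = 4) and 13 ± 5.56 CPM in colon tissue (SD, n = 8), with a log2 fold change of -0.32 ± 0.61 (adjusted p = 0.68, edgeR). Dip2a, whose 3′ end overlaps that of S100b, averaged 23.8 ± 20.1 CPM in the same organoids, and in Control colon organoid 1 S100b had 4 counts while Dip2a had none. Nos1 had 11 counts in EtOH colon organoid 2 and none in the other 3, and averaged 2.04 ± 4.09 CPM in colon organoids and 3.08 ± 1.51 CPM in colon tissue (adjusted p = 0.105, edgeR). Without that 1 library Nos1 was called lower (adjusted p = 0.00942, edgeR).

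All 7 members were lower in jejunum organoids than in jejunum tissue, where 37.5% of all genes were called lower and 63.8% in either direction (median of the 7 -4.4 with 3 genes at their bound, -0.24 over all genes). Uchl1 had 1 count over 8 organoid libraries, at a mean of 0.0246 CPM against 71.4 ± 26.4 CPM in tissue (adjusted p = 4.82e-15, edgeR). Elavl4 had 2 counts over the 8 libraries, at a mean of 0.0532 CPM against 8.73 ± 6.89 CPM in tissue (adjusted p = 1.97e-08, edgeR). S100b, with 9 counts, was lower at -4.4 ± 0.69 on the log2 scale. Vip, Sox10 and Nos1 had no count in any of the 8 libraries and were at least 80.0-fold, 9.77-fold and 5.87-fold lower in that order, by the same floor. Ret was the member with counts in every jejunum organoid library, 6 to 21 of them, at 2.6 ± 1.26 CPM against 9.51 ± 3.72 CPM in tissue, a log2 fold change of -2.39 ± 0.31 (adjusted p = 1.44e-07, edgeR). The call of Nos1 (adjusted p = 0.0393, edgeR) rests on 6 counts in tissue and was lost on plain CPM (0.0536). It was also lost without any 1 of 7 libraries, at adjusted p values of 0.0503 to 1, namely EtOH jejunum organoids 1 and 2, Control jejunum organoids 1, 3 and 4, EtOH jejunum tissue 1 and Control jejunum tissue 2. Over all genes the calls were 3891 higher and 5546 lower with TMM, and 5343 higher and 4505 lower on plain CPM.

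Other nerve and glial genes were lower in organoids too, with exceptions. Of 25 pan-neuronal genes 17 were called lower and 2 higher in colon organoids, the 2 being Elavl2 at 2.41 ± 0.68 and Map2, a microtubule protein, at 1.5 ± 0.46, against 17.9% of all genes called higher. In jejunum organoids 15 were lower and 1 (Nefl) higher, against 26.3% of all genes called higher. Of 17 glial genes 11 were lower in colon organoids and 10 in jejunum organoids, and 1 was higher in either segment. No glial gene was called higher in colon organoids once both donor number 1 tissue libraries were left out. Without both donor number 1 tissue libraries 12 pan-neuronal genes were lower and 3 higher in colon organoids. These exceptions were named after their values were seen. Ednrb, the endothelin receptor, had no count in organoids of either segment. All 13 smooth muscle genes were lower in organoids of both segments, with summed levels of 100.2 to 232 CPM in colon organoids and 119 to 174 CPM in jejunum organoids.

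The last comparison was ethanol within organoids, where only 4 of the 7 members had enough counts to be tested. Apart from Ret, which had counts in every organoid library, they passed through the group where they were high, so that their count says little. In colon organoids Elavl4 had 12 and 17 counts in the EtOH libraries and none in the 2 Control libraries. That is 4.22 and 12.6 CPM with EtOH against 0 and 0 CPM in Control, at least 8.02-fold higher by the same floor. Elavl4 was called (adjusted p = 0.0363, edgeR's quasi-likelihood test on the 12 organoid libraries), the 1 member among 17.3% of all 12922 genes called in either direction and 12.1% called higher. The call was lost with DESeq2 (adjusted p = 0.137), without the filter on low counts (0.0864, edgeR), without Control colon organoid 1 (0.0734) and without EtOH colon organoid 1 (0.0625), and without EtOH colon organoid 2 the gene was not tested. In a fit of only these 4 libraries 3 members were tested and none was called.

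Uchl1 had 20 and 16 counts in the EtOH colon organoid libraries, at 7.03 and 11.9 CPM, against 1 and 0 counts in Control, at 0.491 and 0 CPM, and its adjusted p was 0.0643 by edgeR. Ret was at 11.3 and 8.92 CPM with EtOH and at 6.38 and 7.33 CPM in Control, a log2 fold change of 0.79 ± 0.67 (adjusted p = 0.465, edgeR). The ranges of Elavl4, Uchl1 and Ret were apart and higher with EtOH, as were those of 21.7% of all genes. S100b was at 7.38 and 26.8 CPM with EtOH and at 1.96 and 17.1 CPM in Control and overlapped between the groups. Nos1 had its 11 counts in EtOH library 2, Sox10 had 1 count in EtOH library 1, and Vip had none, so these 3 were not tested. The EtOH libraries held 2843857 and 1345224 counts outside Rn45s, against 2036195 and 818240 in the Control libraries. The enteroendocrine list, 12 genes of the hormone cells of the epithelium, summed to 782 to 1268 CPM with EtOH and to 162 to 2629 CPM in Control, with 2 genes called higher and none lower, and the part of these cells or of depth in the Elavl4 counts was not tested. In jejunum organoids no gene was called (0% of 12922, with 144 at an unadjusted p under 0.05 and 1 called by DESeq2). Ret was at 1.18, 2.06, 1.98 and 2.04 CPM with EtOH and at 2.76, 5.14, 3.67 and 1.96 CPM in Control, a log2 fold change of -0.9 ± 0.48 with groups that overlapped.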

How the data were processed

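For the 27 QuantSeq 3′ libraries, a table of unnormalized counts for each gene was deposited and was used here. Per the submitters' processing notes, Trimmomatic 0.32, BWA, HTSeq, limma and edgeR were among the tools and the build was mm10, also called GRCm38. Strand and settings are not given in the sources used here. A normalized table from the authors was not used. Total counts per library ran from 1337068 to 16312562. No pair of libraries of a group looked like 1 library deposited more than once (35 pairs, chi-square per degree of freedom at least 3.32).

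CPM outside Rn45s were computed from the counts. Tests used edgeR 4.0.16 in R 4.3.3: TMM on all genes, filterByExpr by group, robust quasi-likelihood fit, two-sided, with standard errors taken as the fold change over the root of F, with 1 coefficient per group, on the 15 tissue, 12 organoid or all 27 libraries. Colon against jejunum and organoid against tissue gave both treatments equal weight. The scripts were tested on simulated data. A gene without counts on 1 whole side of a comparison got a bound against 3 counts over that side, one without counts in 1 of the averaged groups is given by its CPM, and floors cover counting error only. DESeq2 1.42.0, other size factors, no filter, Rn45s left out, a donor block and leaving out each library were the alternatives. Plain CPM without a TMM factor, and leaving out the donor number 1 or the 3 Hoxb13-high colon tissue libraries, were added after seeing the data. Named genes were the 7 members, up to 3 called genes per list and direction in tissue comparisons with a mean of at least 1 CPM, and the genes most like the members. The members and the 13 other lists were chosen with earlier results of these data known. The donor numbers were not taken as pairs, since r between the deviations of same-numbered libraries was not over 0.1 in every pair. In colon tissue it was 0.57, -0.03, 0.47 and 0.18 between treatments, so that a partial pairing there cannot be told apart from none. Some genes that the naming rule covers are not reported here.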

Additional observations from a re-analysis of the deposited data

Results flagged for a closer look

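In groups of 4 libraries, a library was picked out where its gap to the nearest other took up more than 0.829 of the group's range, which chance does in about 1 in 20 groups. Of 28 such groups of a member, 9 were picked out. In 4 of the 9 the other 3 libraries were at 0, where any count is picked out, so the chance rate is no guide to the total. Of the 9, 3 lie in colon tissue of donor number 1: Elavl4 at 74.2 CPM in the EtOH library (the next at 28.3), Ret at 32.9 CPM in the Control library (the next at 17.5) and Vip at 139.9 CPM in the Control library (the next at 28.3). These 2 libraries also held the highest smooth muscle sums, 33878 CPM with EtOH and 26102 CPM in Control, and their part in the levels was not tested.

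The other 6 rest on few counts. Nos1 in EtOH jejunum tissue 1 was at 1.9 CPM, from 4 counts. EtOH jejunum organoid 1 stood apart for 4 genes, Elavl4 and Uchl1 at 0.197 CPM (1 count each), S100b at 0.786 CPM (4 counts) and Ret, its lowest, at 1.18 CPM (6 counts). Elavl4 in Control jejunum organoid 3 was at 0.229 CPM, also 1 count.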

How the results depend on the processing

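Of 900 recomputed member results, 875 kept their side of the threshold, 20 lost their call, 5 gained one and none reversed a call. A change of sign in a result that was not called either way was counted among the 875. Leaving out 1 library at a time gave 0 to 1 calls over all genes for ethanol in colon tissue, 0 to 7 in jejunum tissue, 0 to 1 for the difference between the segments and 1457 to 5848 in colon organoids, where 0 to 1 member was called. DESeq2 called 2 genes for ethanol in colon tissue, 31 in jejunum tissue, 2 for the difference and 1 in jejunum organoids. Fitting only the groups compared gave 0 genes in colon tissue, 1 in jejunum tissue and 0 in colon organoids, and 0 genes were called in colon tissue without both donor number 1 libraries. In colon organoids 0 members were called with DESeq2, without the filter and with only the groups compared. The correlation of S100b with muscle was 0.88 over 8 colon libraries (exact permutation p 0.00129, adjusted 0.0181) and 0.87 over 6 without donor number 1 (adjusted 0.506). With the donor number as a replicate block 0 genes were called in colon tissue, and 1181 genes in all and 0 members in colon organoids. The block also called Uchl1 higher in colon than in jejunum tissue (0.56, adjusted p = 0.0343, edgeR) and lost Nos1 in jejunum organoids (adjusted p = 0.0904), but the numbers were not taken as pairs. Uchl1 was also called without EtOH jejunum tissue 3 (0.61, adjusted p = 0.0314, edgeR). The cause of these moves was not tested. Mean levels moved by more than 1 SD in 12 of 56 cases when scaled by TMM. Depth limits jejunum tissue and colon organoids, where 3 counts stand for up to 4.38 and 3.67 CPM of a library, and Nos1 and Sox10 are near or under that floor in most of these libraries.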
